A study of Mus musculus with 6 samples.

Results

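The 37 genes of the mouse mitochondrial genome were followed in RNA from the substantia nigra pars compacta (SNpc), the midbrain nucleus whose dopaminergic neurons project to the striatum. Members were all genes whose symbol starts with mt-. They comprise 2 ribosomal RNA genes, 13 mRNA genes and 22 transfer RNA genes, of 35049 genes in the captured libraries. In 4 libraries the source was laser-captured cells that had stained for tyrosine hydroxylase, from which total RNA was sequenced. The first pair compared En1+/- mice, heterozygous at the Engrailed 1 gene (En1, which encodes a homeobox transcription factor), with wild type mice, all 6 weeks old. The second pair used wild type mice of 8 weeks, in which an osmotic pump had delivered Engrailed 2 protein (En2) for 7 days. It set the infused (ipsilateral) side against the contralateral side of the infused brain, which is no untreated control. A further 2 libraries came from tissue punches of wild type mice of 8 weeks, injected with 6-hydroxydopamine, a toxin of dopaminergic neurons, followed by En2 with colominic acid in 1 library and by a saline vehicle in the other. Each group is 1 library, from a number of animals that the sources used here do not give, and no difference below has a replicate check or a test.

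The mitochondrial genome is a small circular DNA that is read from both strands into long precursor RNAs. Its transfer RNA genes sit between the ribosomal RNA and mRNA genes, and cutting them out of the precursor frees the other RNAs. The mRNAs encode core subunits of respiratory complexes I, III, IV and V, while the remaining subunits and all proteins that transcribe, cut, modify and degrade these RNAs come from nuclear genes. Complex I and mitochondrial stress have been studied at length in nigral dopaminergic neurons because toxins of this complex damage them.

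The sequences of 3 transfer RNA genes are shown because they held 95.1% of all mt-tRNA reads in the En1+/- library, 97.8% in the wild type library, 98.8% on the infused side and 98.9% on the contralateral side. The gene mt-Tf (phenylalanine tRNA, chrM:1-68) opens the genome before the small ribosomal RNA gene mt-Rnr1. Between mt-Rnr1 and the large ribosomal RNA gene mt-Rnr2 lies mt-Tv (valine tRNA, chrM:1025-1093). The gene mt-Tl1 (a leucine tRNA, chrM:2676-2750) separates mt-Rnr2 from mt-Nd1. All 3 are on the plus strand of GRCm38, have a single exon and are printed 5′ to 3′ from the GENCODE M21 transcripts.
mt-Tf: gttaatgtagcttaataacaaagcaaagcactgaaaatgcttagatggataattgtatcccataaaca
mt-Tv: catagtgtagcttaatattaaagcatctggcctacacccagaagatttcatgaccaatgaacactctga
mt-Tl1: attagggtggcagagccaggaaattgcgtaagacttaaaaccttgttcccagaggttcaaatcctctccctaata

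Another pair of sequences marks where an almost identical nuclear copy of mitochondrial DNA begins and ends, since the genes between these points had almost no reads. The copy lies on chromosome 1 of GRCm38 (chr1:24611535-24616197, minus strand), where the annotation holds 7 unprocessed pseudogenes. They match chrM:6381-11042 in the same order to within 1 base, with 7 mismatches in 4149 aligned bases. The stretch of mt-Co1 (chrM:6354-6433) and that of mt-Nd4 (chrM:11003-11082) are printed 5′ to 3′ on the plus strand from GENCODE M21. Capitals mark the bases inside the longest run that is identical to the copy.
mt-Co1: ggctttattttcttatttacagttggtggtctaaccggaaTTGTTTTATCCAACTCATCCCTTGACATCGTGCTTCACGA
mt-Nd4: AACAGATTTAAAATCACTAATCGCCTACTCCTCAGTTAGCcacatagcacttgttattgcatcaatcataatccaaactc

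Counts summed to 21332308 in the En1+/- library, 16145262 in the wild type library, 16330774 on the infused side and 18081543 on the contralateral side. En1 itself had 47 reads in the En1+/- library against 77 in the wild type library, and 136 reads on the infused side against 76 on the contralateral side. In CPM (reads scaled to a common total of nuclear counts), 14 dopaminergic markers summed to 9631 in En1+/- and 10521 in wild type, and to 11719 on the infused side and 10610 on the contralateral side. All of these markers had reads in every captured library. The sum of 12 oligodendrocyte markers was 24829 in En1+/- and 29524 in wild type, and 20347 on the infused side and 19826 on the contralateral side. The sum of 12 microglial markers was 501 in En1+/- and 502 in wild type, and 1005 on the infused side and 534 on the contralateral side. The sum of 10 astrocyte markers was 6762 in En1+/- and 6808 in wild type, and 8887 on the infused side and 8388 on the contralateral side. One of them, Gfap, had 1092 reads on the infused side and 155 on the contralateral side. It had the highest ratio of the 10, whose median log2 ratio on the nuclear scale used below was 0.03, with Aldoc lowest at -0.21. The sum of 8 markers of GABAergic neurons was 2008 in En1+/- and 1458 in wild type, and 1013 on the infused side and 1315 on the contralateral side. One of them, Tal1, had 699 reads in En1+/- and 24 in wild type. It had the highest ratio of the 8, whose median log2 ratio on the same scale was 0.61, with Gata3 lowest at -0.27. The libraries therefore also hold RNA of glial cells and other neurons, whose part in the mitochondrial values was not tested. In such material, fewer cells of a type and less RNA per cell cannot be told apart.

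Mitochondrially encoded RNA took most of the counts listed for each captured library, and nearly all of it was ribosomal. Ribosomal RNA genes outside the mitochondrial genome had 71 reads in En1+/- and 11 in wild type, and 32 on the infused side and 34 on the contralateral side. The shares below are thus of listed counts and are not read as shares of all RNA in the captured cells. The 37 genes took 59.1% of all counts in the En1+/- library and 75.1% in the wild type library. They took 63.2% on the infused side and 72.4% on the contralateral side. The 2 ribosomal RNA genes held 98.9% of these counts in En1+/-, 99.0% in wild type, 98.8% on the infused side and 99.0% on the contralateral side. Counting intervals (95% Wilson) of these shares are narrower than 0.1 percentage points and cover counting error only, because reads are not independent molecules.

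The mRNA genes behaved otherwise when expressed as a share of all counts. They took 0.538% in the En1+/- library (95% Wilson interval 0.535 to 0.541) and 0.537% in the wild type library (0.533 to 0.540). They took 0.451% on the infused side (0.447 to 0.454) and 0.449% on the contralateral side (0.446 to 0.452). Intervals overlapped within each pair. Transcripts of 1 nuclear gene are listed separately and often carry near equal counts, which enlarges the total. With 1 transcript per gene in the total, the mRNA share was 0.723% in En1+/- and 0.635% in wild type, and 0.583% on the infused side and 0.541% on the contralateral side, a choice of total made after seeing the data. The near equality within pairs therefore rests on the way the total is counted.

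The transfer RNA genes took 0.0901% of all counts in En1+/- and 0.214% in wild type, a gap that mt-Tv made. They took 0.293% on the infused side and 0.284% on the contralateral side. Without mt-Tv, 7561 mt-tRNA reads remained in En1+/- and 5088 in wild type, and 4878 on the infused side and 7776 on the contralateral side.

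**Figure D1:**
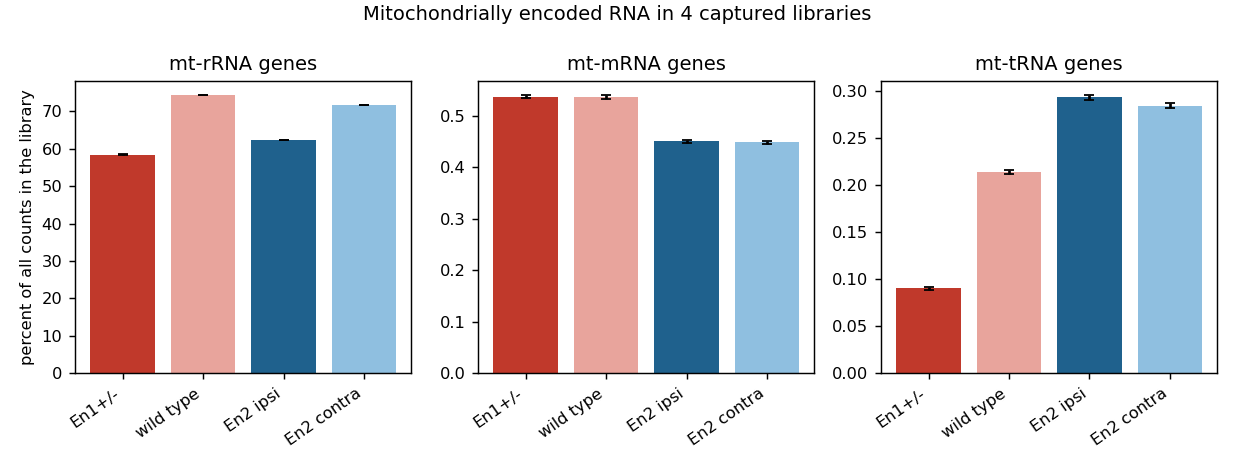
Share of all counts (percent, each axis from 0) taken by mt-rRNA, mt-mRNA and mt-tRNA genes in the 4 captured libraries, with 95% Wilson intervals for counting error. The mt-mRNA bars are of near equal height within each pair at 0.538% and 0.537% and at 0.451% and 0.449%, while the En1+/- library has the lowest mt-tRNA share at 0.0901%.

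Within the ribosomal RNAs, mt-Rnr2, the RNA of the large mitochondrial ribosomal subunit, had more reads than mt-Rnr1, the RNA of the small subunit. The reads of mt-Rnr1 were 1906112 in En1+/- and 1684167 in wild type, and 1886469 on the infused side and 2699645 on the contralateral side. The reads of mt-Rnr2 were 10566063 in En1+/- and 10325223 in wild type, and 8305148 on the infused side and 10254118 on the contralateral side. Per base of gene, mt-Rnr2 exceeded mt-Rnr1 by a factor of 3.35 in En1+/- and 3.70 in wild type, and 2.66 on the infused side and 2.29 on the contralateral side. Both libraries of the infusion pair thus lay below both libraries of the first pair in this ratio. The pairs differ in age and treatment, and these cannot be told apart. The ribosomal RNAs had 109 reads for each mt-mRNA read in En1+/- and 139 in wild type, and 138 on the infused side and 160 on the contralateral side.

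Among the 13 mRNA genes, 7 had between 783 and 42607 reads in each library, and the other 6 had between 0 and 6. The 7 genes encode complex I subunits (mt-Nd1, mt-Nd2, mt-Nd4, mt-Nd5 and mt-Nd6), cytochrome b of complex III (mt-Cytb) and the catalytic subunit of complex IV (mt-Co1). The 6 near zero encode 2 further complex IV subunits (mt-Co2, mt-Co3), both mitochondrially encoded ATP synthase subunits (mt-Atp6, mt-Atp8) and 2 complex I subunits (mt-Nd3, mt-Nd4l). As a result complex V genes took no more than 0.00923% of mt-mRNA reads in any library. Complex I genes took 73.9% in En1+/- and 75.1% in wild type, and 66.9% on the infused side and 65.4% on the contralateral side. The mt-Cytb share was 21.3% in En1+/- and 21.2% in wild type, and 26.7% on the infused side and 28.5% on the contralateral side. With 6 of the 13 genes near 0, these shares are of listed reads and are not read as the make-up of the mitochondrial mRNAs.

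The measured mRNAs kept 1 order of reads per base in all 4 libraries. The most read was mt-Nd1, with 44.5 reads per base in En1+/- and 34.7 in wild type, and 22.5 on the infused side and 23.4 on the contralateral side. It was followed by mt-Cytb with 21.4 in En1+/- and 16.1 in wild type, and 17.2 on the infused side and 20.2 on the contralateral side. Next came mt-Nd4 with 7.75 to 13.5 reads per base, mt-Nd5 with 7.11 to 9.38, mt-Nd2 with 3.10 to 5.16 and mt-Co1 with 2.09 to 3.58. The lowest was mt-Nd6, the mRNA encoded on the minus strand, with 1.51 to 2.06 reads per base. The gaps between mt-Nd2 and mt-Co1 on the infused side (3.10 and 3.07 reads per base) and between mt-Co1 and mt-Nd6 in wild type (2.09 and 1.97) were the narrowest.

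**Figure D2:**
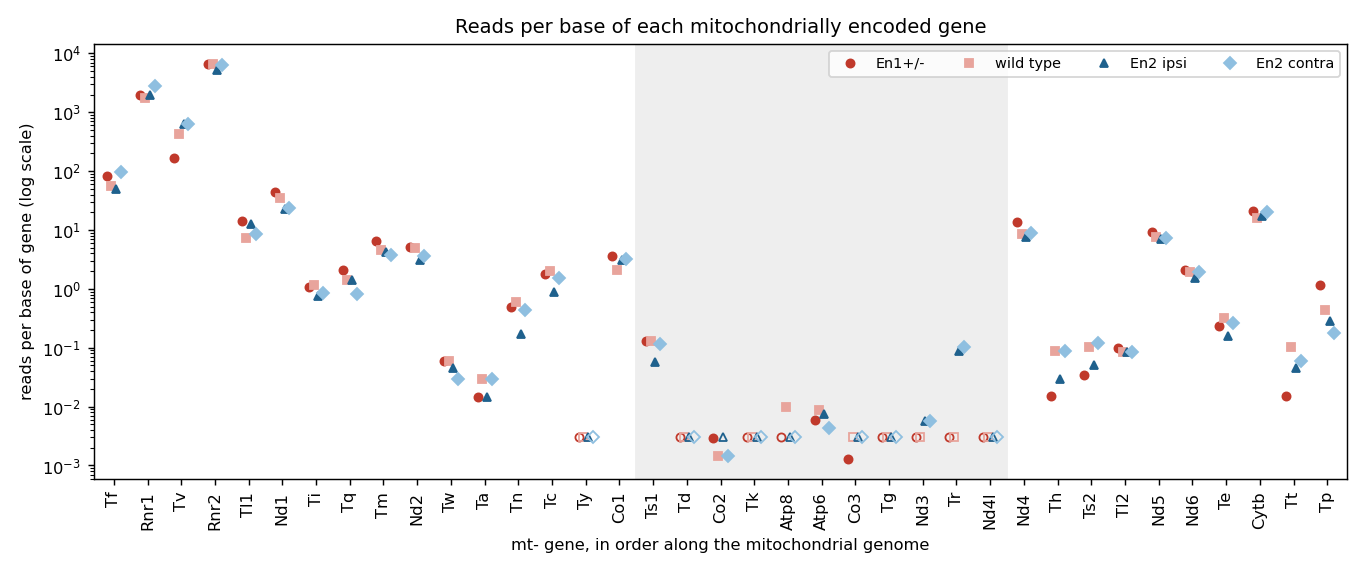
Reads per base (log scale) of each of the 37 genes in their order along the mitochondrial genome, 1 symbol per library; open symbols at the foot stand for 0 reads, and grey marks the 11 genes that lie wholly within the stretch matched by the copy on chromosome 1. The 2 ribosomal RNA genes lie near 10 to the power of 3 and above, and the genes in the grey stretch have at most 9 reads each.

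Of the 18 genes with fewer than 20 reads in every library, 11 lay together on the genome and 7 tRNA genes lay elsewhere. All 11 genes wholly inside the stretch copied on chromosome 1 (6 mRNA and 5 tRNA genes) had between 0 and 9 reads in every library. The highest was mt-Ts1 (a serine tRNA) with 9 reads in En1+/- and 9 in wild type, and 4 on the infused side and 8 on the contralateral side. The gene mt-Atp6 had 4 reads in En1+/- and 6 in wild type, and 5 on the infused side and 3 on the contralateral side. The gene mt-Co2 had 2 reads in En1+/- and 1 in wild type, and 0 on the infused side and 1 on the contralateral side. No reads were listed in any captured library for mt-Nd4l, mt-Td, mt-Tk and mt-Tg, nor for mt-Ty (tyrosine tRNA), which lies outside that stretch. The other 6 low tRNA genes outside it (mt-Tw, mt-Ta, mt-Th, mt-Ts2, mt-Tl2 and mt-Tt) had between 1 and 7 reads in each library. A count of 0 allows up to 3 reads, which is at most 2.91e-05% of the mitochondrial counts of a library.

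Shared sequence was measured as the percent of a gene's 30-base words that also occur in an annotated transcript outside the mitochondrial genome. It was 100% for mt-Co2, 99.9% for mt-Co3, 99.5% for mt-Atp6, 98.9% for mt-Nd4l and 98.1% for mt-Nd3, all with at most 6 reads. It was 64.8% for mt-Co1 and 62.8% for mt-Nd4, which cross the edges of the copied stretch as printed above, and 17.5% or less for the other measured mRNAs. For mt-Co1 the sharing is not only with that stretch. Its copy there, Gm29216, shares 450 words. The pseudogene Gm13340 on chromosome 2 aligns with the whole gene at 97.6% identity and shares 706. Among the mRNAs the exception was mt-Atp8, with 8.00% shared words and 0 reads except for 2 in wild type. The 5 tRNA genes inside the stretch share 0% of their words, as do 6 of the 7 low tRNA genes outside it. Words were sought in annotated transcripts only. A value of 0% therefore cannot show whether a nuclear copy holds the sequence of a tRNA gene, inside the stretch or outside it. Outside it, mt-Tw, mt-Ta and mt-Ty lie at the gap between the matches of Gm13339 (to chrM:4951) and Gm13340 (from chrM:5328) on chromosome 2. So do mt-Tn and mt-Tc, which had at least 20 reads in a library. Most of mt-Atp8 (chrM:7766-7969), like the 5 tRNA genes inside the stretch, lies between the pseudogenes' matches, where the nuclear sequence was not analysed here. The end of mt-Atp8 overlaps the match of Gm10925, which begins at chrM:7927. Of the 17 tRNA genes outside the stretch, 10 had at least 20 reads in a library.

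Of the copies on chromosome 1, only Gm10222, the copy of mt-Nd4l, is listed for the captured libraries, with 0 reads except for 1 in wild type. The others there (Gm28439, Gm28438, Gm28437, Gm10925, Gm28661 and Gm29216) are not listed, so any reads placed on them cannot be seen here. The copy of mt-Co1 on chromosome 2, Gm13340, had 10 reads in En1+/- and 3 in wild type, and 7 on the infused side and 10 on the contralateral side. Read length and the treatment of reads that match several places are not given in the sources used here, and the cause of the low counts was not tested. The counts of the 6 low mRNAs are given here as listed and are not read as levels of these RNAs. If the reads of mt-Co1 and mt-Nd4 are divided over their unshared words only, mt-Nd4 reaches 37.1 reads per word in En1+/- and 23.1 in wild type, and 21.3 on the infused side and 24.6 on the contralateral side. On that scale mt-Cytb has 23.7 in En1+/- and 17.8 in wild type, and 19.0 on the infused side and 22.4 on the contralateral side, so that mt-Nd4 stands above mt-Cytb. The order of reads per base given above therefore holds for whole genes only.

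**Figure D3:**
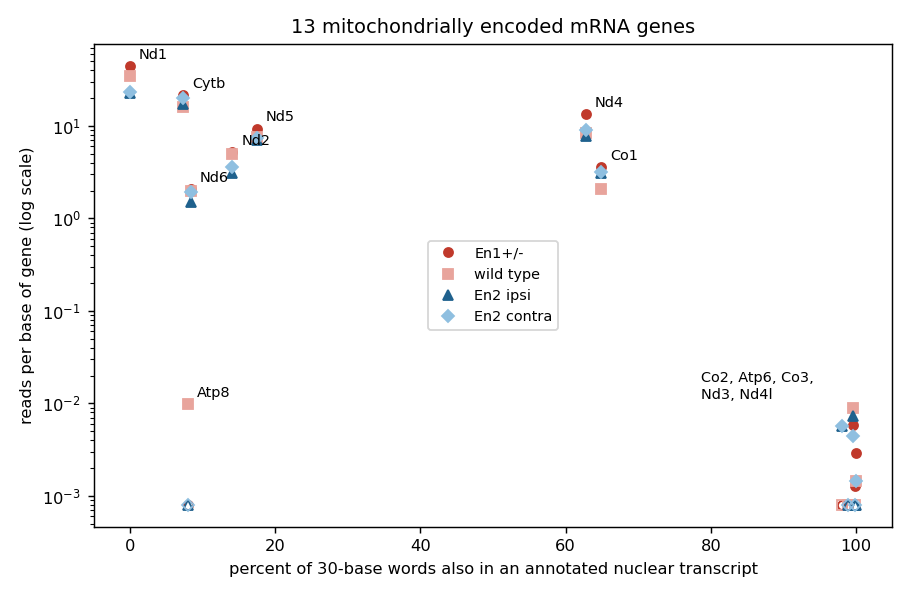
Reads per base (log scale) of the 13 mRNA genes against the percent of their 30-base words that also occur in an annotated nuclear transcript, 1 symbol per library, with open symbols at the foot for 0 reads. The 5 genes at 98.1% to 100% have at most 6 reads each, and mt-Atp8 at 8.00% is the exception among the other 8.

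The first comparison asked how the mitochondrial RNAs differ in En1+/- mice. Ratios are log2 of En1+/- over wild type after scaling to the median ratio of nuclear genes, with 0.5 added, and the brackets hold exact 95% counting intervals. On this scale the ribosomal RNA sum was -0.95, the mRNA sum -0.60 (-0.61 to -0.58) and the tRNA sum -1.85 (-1.87 to -1.82). The mRNA sum turned to 0.00 when library totals were used for scaling, so its direction rests on the choice of nuclear genes as the yardstick. Raw mitochondrial counts were close, 12606146 in En1+/- and 12130608 in wild type, while the counts outside them were 8726162 in En1+/- and 4014654 in wild type. Fewer mitochondrial RNAs and more nuclear RNA per library cannot be told apart.

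A gene was called by a rule of size that asks for a 2-fold ratio, an interval excluding 0, and 20 or more reads in either library. By this rule 5 of 19 measured mitochondrial genes were lower in En1+/- and 0 were higher, against 14.2% lower and 20.2% higher of all 11500 measured genes (34.3% in either direction). Of all called genes 58.7% were higher in En1+/-, and 82.8% when library totals were used. The other 18 mitochondrial genes had too few reads in both libraries. The median ratio of the 19 genes was -0.71 and that of all measured genes 0.10. All 5 called genes encode tRNAs.

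The transfer RNA mt-Tv had 11664 reads in En1+/- against 29464 in wild type, and was 5.05-fold lower (log2 -2.34, -2.37 to -2.31). It stayed lower by library totals, with a log2 ratio of -1.74. Reads of its flanking genes mt-Rnr1 and mt-Rnr2 were slightly more numerous in the En1+/- library than in the wild type library. Per base, mt-Tv stood at 8.47% of mt-Rnr1 in En1+/- and at 24.2% in wild type. On the 2 sides of the infused brains the value was 31.5% (infused) and 22.4% (contralateral), so En1+/- was the library that stood apart. The sources used here do not say whether a read that spans mt-Tv and a flanking gene counts for both. In the authors' deposited table, whose values come from 1 library a side (DESeq 1.8.3 is named in the submitters' processing notes), mt-Tv had an adjusted p of 1.23e-07. It was the only transcript past 0.05 in the lower direction there, 1 of 62202 transcripts (0.00161%), against 60 in the higher direction (0.0965%).

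The other 4 called tRNAs had far fewer reads. Asparagine tRNA mt-Tn had 35 reads in En1+/- against 43 in wild type (log2 -1.28, -1.98 to -0.62). Cysteine tRNA mt-Tc had 120 reads in En1+/- against 131 in wild type (log2 -1.12). Isoleucine tRNA mt-Ti had 74 reads in En1+/- against 79 in wild type (log2 -1.09, -1.57 to -0.62). Glutamate tRNA mt-Te had 16 reads in En1+/- against 22 in wild type (log2 -1.42, -2.49 to -0.46). The raw counts of these 4 were thus near each other, and under scaling to library totals none of the 4 passed the rule. The tRNA sum without mt-Tv was -0.43 (-0.48 to -0.38).

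No mRNA passed the rule in this pair. The ratio was -0.96 (-1.01 to -0.90) for mt-Nd2, with 5360 reads in En1+/- and 5210 in wild type. For mt-Nd6 it was -0.94 (-1.06 to -0.81), with 1069 reads in En1+/- and 1023 in wild type. At the other end mt-Co1 had -0.22 (-0.29 to -0.16), with 5535 reads in En1+/- and 3229 in wild type. For mt-Nd4 it was -0.32 (-0.35 to -0.28), with 18633 reads in En1+/- and 11601 in wild type. Between them lay mt-Nd5 at -0.71, mt-Nd1 at -0.64 and mt-Cytb at -0.59. Within the mRNA class, which needs no nuclear yardstick, the share of mt-Co1 was 4.82% in En1+/- and 3.73% in wild type. That of mt-Nd2 was 4.67% in En1+/- and 6.01% in wild type, and that of mt-Nd4 16.2% in En1+/- and 13.4% in wild type. The 2 genes with the largest gain in share, mt-Co1 and mt-Nd4, are those that cross the edges of the copied stretch. In the infusion pair the log2 ratio of these shares was 0.077 for mt-Co1 and -0.067 for mt-Nd4. A link to the copy was not tested.

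The tRNAs mt-Tf, mt-Tl1, mt-Tq, mt-Tm and mt-Tp were not called. Leucine tRNA mt-Tl1 had 1055 reads in En1+/- and 547 in wild type, a ratio of -0.05 (-0.20 to 0.10). Proline tRNA mt-Tp had 77 reads in En1+/- and 29 in wild type, a ratio of 0.40 (-0.22 to 1.08). Phenylalanine tRNA mt-Tf had 5571 reads in En1+/- and 3781 in wild type, a ratio of -0.44 (-0.50 to -0.38). In all, 17 of the 19 intervals lay below 0 and the 2 for mt-Tl1 and mt-Tp held 0. By share of all counts, which amounts to scaling by library totals, 11 of the 19 genes were below 0 and 8 above.

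**Figure D4:**
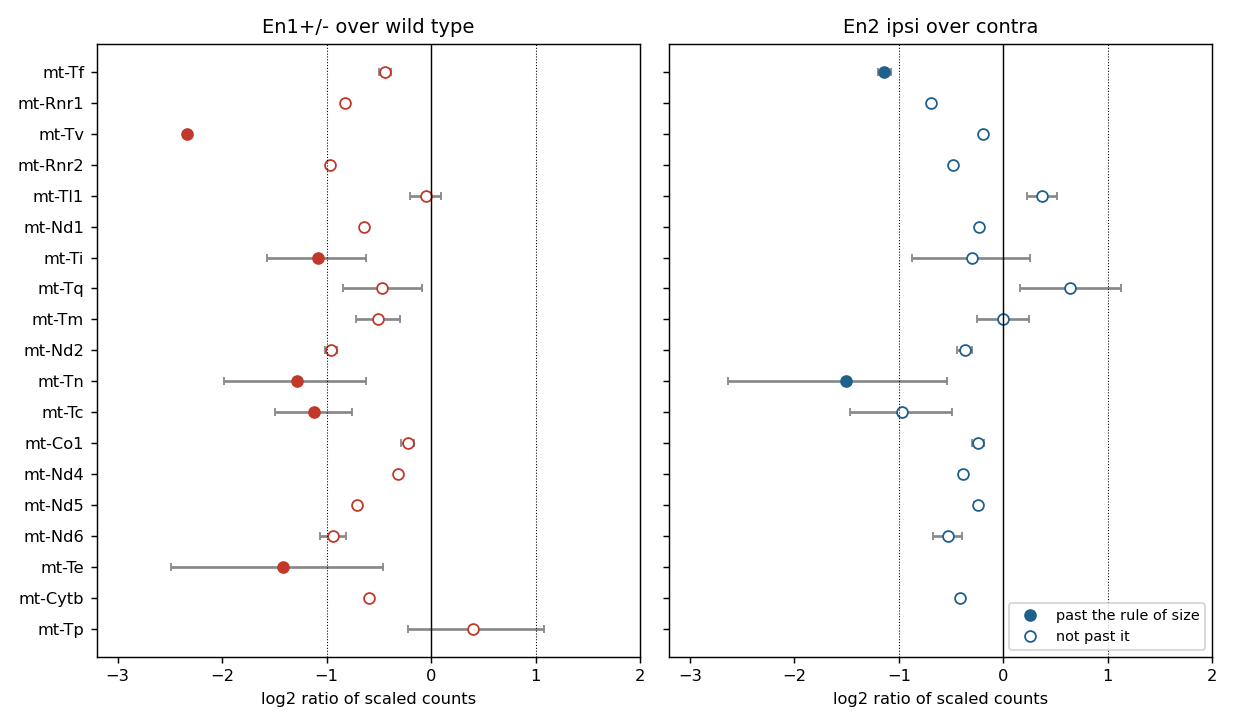
Log2 ratios of scaled counts for the measured mitochondrial genes, En1+/- over wild type at left and infused over contralateral side at right, with exact 95% counting intervals; filled points passed the rule of size and dotted lines mark a 2-fold ratio. On this scale 18 of 19 points lie below 0 at left and 15 of 17 at right, and scaling to library totals turns the sign of 7 at left and 6 at right.

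The second comparison asked how the infused side differs from the contralateral side. The ribosomal RNA sum had a log2 ratio of -0.52, the mRNA sum -0.32 (-0.33 to -0.30) and the tRNA sum -0.28 (-0.30 to -0.26). Scaled to library totals the mRNA sum was 0.01 and the tRNA sum 0.04, so the direction of both rests on the nuclear yardstick. The tRNA sum is mostly mt-Tv, and without it the ratio was -0.85 (-0.90 to -0.80). That is larger in size than the shift of 0.32 that library totals bring. Most reads left were those of mt-Tf, 3359 of 4878 on the infused side and 6549 of 7776 on the contralateral side. The value without mt-Tv is therefore mainly that of 1 gene and not of the tRNAs as a class. Of the 8 measured tRNAs, 6 lay below 0 and 2 above. The raw mitochondrial counts were 10313057 on the infused side and 13086330 on the contralateral side, and the counts outside them 6017717 on the infused side and 4995213 on the contralateral side. Of the 17 measured mitochondrial genes, 2 were lower on the infused side by the rule of size and 0 were higher, against 17.1% lower and 20.7% higher of 11361 measured genes (37.7% in either direction). Of all called genes 54.8% were higher on the infused side, and 69.6% when library totals were used. The median ratio of the 17 genes was -0.37 and that of all measured genes 0.08.

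The gene mt-Tf had 3359 reads on the infused side against 6549 on the contralateral side, and was 2.20-fold lower (log2 -1.14, -1.20 to -1.08). Its level per base was 2.50% of that of mt-Rnr1 on the infused side and 3.41% on the contralateral side, and 4.10% in En1+/- and 3.15% in wild type. In the authors' deposited table, again from 1 library a side (DESeq 1.8.3 in the submitters' processing notes), its adjusted p was 0.0252. It was 1 of 2 transcripts past 0.05 in the lower direction, of 64068 (0.00312%), against 46 in the higher direction (0.0718%). By library totals its ratio was -0.82, short of 2-fold. The other called gene, mt-Tn, had 12 reads on the infused side against 31 on the contralateral side (-2.64 to -0.54 on the log2 scale), 2.83-fold lower.

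The gene mt-Tv, lower in the En1+/- pair, had 42960 reads on the infused side and 43620 on the contralateral side, a ratio of -0.20 (-0.22 to -0.18). Its sign turned under library totals, with 0.12. Leucine tRNA mt-Tl1 had 943 reads on the infused side and 647 on the contralateral side, a ratio of 0.37 (0.22 to 0.52). Glutamine tRNA mt-Tq had 102 reads on the infused side and 58 on the contralateral side, a ratio of 0.64 (0.16 to 1.13). These 2 were the measured genes with an interval above 0 in the infusion pair. Against the mRNA next to it, mt-Tl1 stood per base at 55.8% of mt-Nd1 on the infused side and 36.8% on the contralateral side.

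The ratios of the 7 mRNAs lay in a narrow range in the infusion pair, from -0.53 (-0.67 to -0.40) for mt-Nd6 to -0.23 (-0.26 to -0.21) for mt-Nd1. The reads of mt-Nd6 were 783 on the infused side and 1003 on the contralateral side, and those of mt-Nd1 were 21565 on the infused side and 22437 on the contralateral side. For mt-Cytb there were 19641 reads on the infused side and 23152 on the contralateral side, a ratio of -0.41. For mt-Co1 there were 4745 reads on the infused side and 4960 on the contralateral side, a ratio of -0.24. None passed the rule of size. Within the mRNA class the log2 ratio of shares ran from -0.22 for mt-Nd6 to 0.08 for mt-Nd1, against -0.36 for mt-Nd2 to 0.37 for mt-Co1 in the En1+/- pair.

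To see how far libraries of wild type genotype differ, the contralateral side was set against the wild type library, which also serves in the first pair. These libraries differ in age and in treatment. By the rule of size 2 of 19 measured mitochondrial genes were lower on the contralateral side (mt-Tq and mt-Tp) and 0 higher, against 13.4% lower and 14.1% higher of all measured genes. The log2 ratio was -0.19 for the ribosomal RNA sum, -0.40 for the mRNA sum and 0.27 for the tRNA sum. For single mRNAs it ran from -0.87 (-0.89 to -0.84) for mt-Nd1 to 0.32 (0.25 to 0.38) for mt-Co1. This span of mRNA ratios was wider than in either pair. The mt-Tv ratio was 0.26 (0.24 to 0.29), against -2.34 in the En1+/- pair.

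Nuclear genes for the same respiratory complexes were set beside the mitochondrial ones. Of 73 such genes, 65 were measured in the En1+/- pair, with 1 higher and 3 lower by the rule of size and a median ratio of -0.09. In the infusion pair 64 were measured, with 7 higher and 3 lower and a median of 0.07. Over all measured genes 34.3% passed the rule in the En1+/- pair and 37.7% in the infusion pair. All 3 lower genes in En1+/- encode complex I subunits. Ndufv2 had 176 reads in En1+/- and 229 in wild type (log2 -1.38, -1.67 to -1.09). Ndufa12 had 27 reads in En1+/- and 33 in wild type (log2 -1.27). The third, Ndufa9, had a log2 ratio of -1.07 and is named because it completes the count. The higher gene in En1+/- was Uqcrc1, a complex III core subunit, with 1231 reads in En1+/- and 281 in wild type (log2 1.13). On the infused side Ndufa12 was higher, with 130 reads there and 31 on the contralateral side (log2 1.88), and Cyc1, cytochrome c1 of complex III, was lower, with 104 reads there and 240 on the contralateral side (log2 -1.38).

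**Figure D5:**
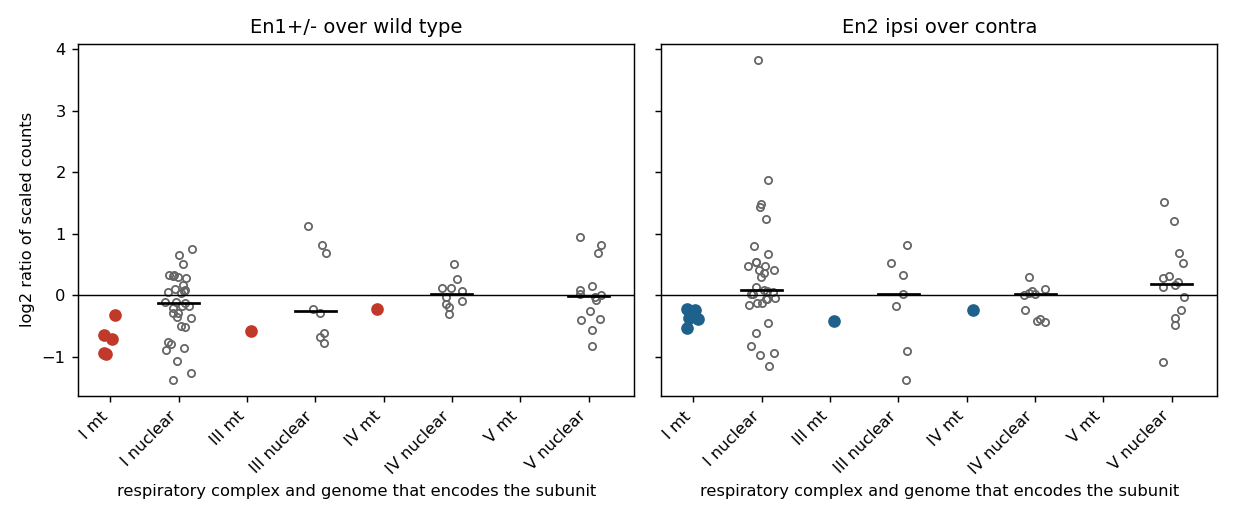
Log2 ratios of scaled counts for measured subunits of respiratory complexes I, III, IV and V, mitochondrially encoded (filled) and nuclear (open, with a bar at the median), En1+/- over wild type at left and infused over contralateral side at right. The filled points lie between -0.96 and -0.22 at left and between -0.53 and -0.23 at right on the nuclear scale; by library totals the mRNA sums are at 0.00 and 0.01. No mitochondrially encoded complex V gene was measured.

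Genes that transcribe and process mitochondrial RNA moved in both directions. Of 10 measured genes of transcription and replication, 2 were higher and 1 was lower in En1+/-, and 3 were higher and 1 was lower on the infused side. The lower gene in En1+/- was Tefm, with 40 reads in En1+/- and 41 in wild type (log2 -1.02). On the infused side it was Mterf2, with 13 reads there and 25 on the contralateral side (log2 -1.09). Polrmt, the mitochondrial RNA polymerase, had 183 reads in En1+/- and 23 in wild type and was higher (log2 1.98, 1.36 to 2.69). It had 29 reads on the infused side and 31 on the contralateral side (log2 -0.27, -1.05 to 0.51). Tfam, which packages mitochondrial DNA and starts its transcription, had 121 reads in En1+/- and 39 in wild type (log2 0.63, 0.10 to 1.19). It had 128 reads on the infused side and 42 on the contralateral side and was higher there (log2 1.42, 0.92 to 1.97). Ssbp1, the mitochondrial single-stranded DNA binding protein, was higher in both pairs. It had 81 reads in En1+/- and 5 in wild type (log2 2.93), and 153 reads on the infused side and 27 on the contralateral side (log2 2.31). It was also higher on the contralateral side than in wild type (log2 2.04), so the wild type library was the lowest of the 4.

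Of 31 measured genes of mitochondrial RNA processing, modification and decay, 5 were higher and 4 lower in En1+/-, and 8 were higher and 6 lower on the infused side. Lrpprc, which stabilises mitochondrial mRNAs, was not called in either pair (log2 0.40 in En1+/- over wild type and 0.09 in infused over contralateral side). Nsun3, which modifies the mitochondrial methionine tRNA, had 254 reads in En1+/- and 19 in wild type (log2 2.72). It had 0 reads on the infused side and 35 on the contralateral side. Trit1, which modifies a base next to the anticodon of several tRNAs, had 17 reads in En1+/- and 45 in wild type (log2 -2.36), and 161 reads on the infused side and 37 on the contralateral side (log2 1.93). Of 8 biogenesis regulators, 2 were higher and 0 lower in En1+/-, and 0 were higher and 1 lower on the infused side. Ppargc1a, a coactivator that drives mitochondrial biogenesis, was called in neither (log2 0.36 in En1+/- over wild type and -0.41 in infused over contralateral side). These counts stand beside 34.3% and 37.7% of all measured genes past the same rule.

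In the punched libraries all 37 mitochondrial genes were listed at 0, both after 6-hydroxydopamine with En2 and after 6-hydroxydopamine alone. In the same libraries all 72 nuclear respiratory genes listed had reads, 91592 in sum with En2 and 82685 without. A list of 0 for every mitochondrial gene beside such totals was not read as a level of these RNAs, and the punched libraries were used no further.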

How the data were processed

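Counts per transcript were deposited by the authors for each captured sample, over 95533 transcripts and 35049 genes. Named in the submitters' processing notes, without roles, are the build mm10, Bowtie, HTSeq and DESeq 1.8.3. Tables of the infusion pair carry En1 in their names while the labels say En2, and the labels were followed. For each pair, a deposited table of the authors' own comparison holds log2 fold changes and p-values from 1 library a side; their log2 fold changes differ from the raw log2 ratio by 1 offset a table (-1 and -0.143). The punched samples were deposited as counts per gene.

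Each gene was represented by its most-read transcript over the 4 captured libraries. The 9402 transcripts without a gene identifier count in library totals only. Within a pair, scaling used the median of ratios over nuclear genes other than ribosomal RNA with reads in both libraries, 0.5 was added, and log2 ratios were taken with exact 95% Clopper-Pearson counting intervals. Nuclear copies were sought as 30-base words shared between GENCODE M21 transcripts, without a genome sequence. Members, lists and rules were chosen with earlier results of these data known. Named genes were all mt- genes, the 2 highest and 2 lowest of each list, Polrmt, Tfam, Lrpprc, Ppargc1a, En1 and Th, of which not all are reported. Alternatives were other scalings (library totals, TMM in edgeR 4.0.16 under R 4.3.3, nuclear total, a minimum of 100 reads), other read minimums, a 1.5-fold rule, 1 added to counts and other ways of counting transcripts; leaving out mt-Tv, the mRNA and tRNA shares with other totals and scalings of the contralateral side against wild type were added after seeing the data. On simulated counts over 35049 genes, 100% of 200 altered genes (simulated log2 change 2) were recovered in each pair. These counts held counting error only, the altered genes were not low in reads, and the change exceeded the 2-fold rule. Recovery was therefore near certain. It checks the computation and says nothing about differences between animals or libraries. Python 3.11.15, numpy 2.4.6, scipy 1.17.1, pandas 2.3.3 and matplotlib 3.10.9 were used.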

Additional observations from a re-analysis of the deposited data

How the results depend on the processing

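With 1 transcript per gene in the total, mitochondrial genes took 79.4% of counts in En1+/-, 88.9% in wild type, 81.7% on the infused side and 87.3% on the contralateral side. Over transcripts with a gene identifier only, they took 62.1%, 77.4%, 66.2% and 75.0% in the same libraries. Scaling to library totals moved all En1+/- ratios up by 0.60 and all infusion ratios by 0.32. It raised the higher part of all called genes to 82.8% from 58.7% in the En1+/- pair and to 69.6% from 54.8% in the infusion pair. For En1+/- over wild type, the mRNA sum was 0.0030 by library totals, -0.71 by nuclear total and -0.57 over nuclear genes with at least 100 reads. The rRNA sum was -0.35 by library totals, -0.94 by TMM, -1.06 by nuclear total and -0.92 with 100 reads. The tRNA sum was -1.25 by library totals, -1.96 by nuclear total and -0.43 without mt-Tv. The count of called mitochondrial genes, 5, was 1 by library totals, 8 by nuclear total, 8 without a read minimum, 2 with at least 100 reads and 12 at 1.5-fold. For all genes, 3950 calls became 1576 with at least 100 reads.

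For the infused over the contralateral side, the mRNA sum was 0.0057 by library totals, -0.33 by TMM, -0.42 by nuclear total, -0.37 with 100 reads and -0.30 with transcripts summed. The rRNA sum was -0.20, -0.54, -0.62, -0.57 and -0.50 in the same settings. The tRNA sum was 0.043, -0.30, -0.38, -0.33 and -0.26 in them, and -0.85 without mt-Tv. The count of called mitochondrial genes, 2, was 1 by library totals, 1 with at least 100 reads and 5 at 1.5-fold, and 4285 calls over all genes became 1470 with at least 100 reads. Among single genes, library totals turned the sign of 7 of 19 in the En1+/- pair and 6 of 17 in the infusion pair, and summed transcripts that of 1 in the infusion pair. No paired analysis was possible because each group is 1 library. Leaving out a replicate was not possible for that reason. No ratio is given for 12 tRNAs and 6 mRNAs, which had fewer than 20 reads in every library. The same holds for mt-Te and mt-Tp in the infusion pair, where both libraries had fewer than 20 reads.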

Other observations

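On the contralateral side against wild type, 14 of 64 measured nuclear respiratory genes were lower by the rule of size and 0 were higher, beside 13.4% lower and 14.1% higher of all measured genes, with a median log2 ratio of -0.70. The sum of the listed nuclear respiratory genes in CPM of nuclear counts was 8704 on the contralateral side and 14911 in wild type. It was 8226 on the infused side and 13833 in En1+/-, so both libraries of the infusion pair lay below both of the first pair. Examples are Uqcr10 of complex III, with 152 reads on the contralateral side and 385 in wild type (log2 -1.64), and Ndufs8 of complex I, with 81 reads on the contralateral side and 212 in wild type (log2 -1.68). The mitochondrially encoded mRNA sum had a ratio of -0.40 for the contralateral side over wild type. Age, infusion and library cannot be told apart here.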
